A study of Arabidopsis thaliana with 8 samples.

Results

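Binding peaks around the transcription termination site (TTS) of protein-coding genes were examined for the Arabidopsis transcription factors GNC and CGA1. A peak was counted as a TTS peak when its centre lay between 100 bp upstream and 1 kb downstream of the annotated end of a protein-coding transcript and outside every protein-coding promoter, the window from 1 kb upstream to 100 bp downstream of a transcription start site (TSS). Over the 4 peak lists this rule gave 3158 of 16320 peaks on chromosomes 1 to 5. They were 1120 of 5744 peaks of GNC replicate 1, 1130 of 5721 of GNC replicate 2, 456 of 2456 of CGA1 replicate 1 and 452 of 2399 of CGA1 replicate 2.

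The study carried out ChIP-seq with an anti-myc antibody on rosette leaves of 3-weeks-old plants that overexpressed myc-GNC or myc-CGA1, both in the Col-0 background and grown in long days of 16 h light and 8 h dark. Each line had 2 biological replicates, each with an IP and an INPUT library, or 8 libraries in all. The factors were tagged and made in excess in both lines, so binding of the native proteins was not measured, and an anti-myc ChIP of untagged plants was not analysed here. The lists give an interval and a MACS score for each peak, which is −log10 of the p-value of IP over INPUT times 10, with a minimum of 50. They hold no read counts, so the depth of sequencing was not used here, and no expression values with which to check the tissue.

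Where TTS peaks of both replicates overlapped, the edges were identical in all 911 cases for GNC and differed by 0 or 4 bp in 337 of 362 cases (93.1%) for CGA1. The lists of a line were therefore counted as 1 sample (n = 1 per line), both values are given for each list, and no spread between replicates was derived. The intervals given for shares and their differences are 95% Wilson or Newcombe intervals, which treat peaks as independent and cover counting error only.

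GNC and CGA1 are GATA factors, zinc finger proteins that bind DNA at GATA words and act in greening, chloroplast development and the cytokinin response of leaves. The TTS is the region in which the transcript is cleaved and polyadenylated and the polymerase leaves the template. In the compact Arabidopsis genome the region behind 1 gene is often the promoter or the 3′ end of its neighbour, so the rule leaves out positions that are also a protein-coding promoter.

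The sequences at the centres of 6 TTS peaks are shown because they stand for the kinds of region described below: the highest GNC peak, the second-highest CGA1 peak, a CGA1 peak behind another GATA factor gene, neighbouring GNC and CGA1 peaks behind AT1G12120, and a region in which the centres of both factors nearly coincide. Each stretch is 151 bases of the forward strand of TAIR10.1 (RefSeq), written 5′ to 3′, with GATA and GATC on either strand in capitals (TATC is GATA on the other strand). None of them contains an annotated UTR base.
LACS2, GNC, chr1:18296515-18296665: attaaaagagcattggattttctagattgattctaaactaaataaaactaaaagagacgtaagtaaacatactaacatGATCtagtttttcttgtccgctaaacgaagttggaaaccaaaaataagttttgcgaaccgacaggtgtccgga
AT1G04670, CGA1, chr1:1302781-1302931: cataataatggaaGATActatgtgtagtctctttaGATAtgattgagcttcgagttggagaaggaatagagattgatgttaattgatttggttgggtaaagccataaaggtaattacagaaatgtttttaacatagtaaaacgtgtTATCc
GATA17, CGA1, chr3:5763272-5763422: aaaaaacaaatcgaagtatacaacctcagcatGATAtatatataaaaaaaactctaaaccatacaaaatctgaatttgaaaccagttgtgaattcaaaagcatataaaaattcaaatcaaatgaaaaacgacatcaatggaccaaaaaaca
AT1G12120, GNC, chr1:4114061-4114211: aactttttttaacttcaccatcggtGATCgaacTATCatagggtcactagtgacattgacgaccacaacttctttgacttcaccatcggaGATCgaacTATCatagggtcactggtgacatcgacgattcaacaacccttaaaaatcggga
AT1G12120, CGA1, chr1:4114374-4114524: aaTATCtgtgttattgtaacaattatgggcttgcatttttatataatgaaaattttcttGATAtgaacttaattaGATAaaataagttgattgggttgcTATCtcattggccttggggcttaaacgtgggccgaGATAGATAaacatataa
LCR67, GNC, chr1:28472970-28473120: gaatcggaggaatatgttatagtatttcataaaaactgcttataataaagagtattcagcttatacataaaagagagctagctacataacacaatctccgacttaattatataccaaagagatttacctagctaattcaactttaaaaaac
The number of GATA words in these stretches was 0 at LACS2, 3 at AT1G04670, 1 at GATA17, 2 and 6 at the GNC and CGA1 peaks of AT1G12120 and 0 at LCR67. GATC occurred 1 time at LACS2, 2 times at the GNC peak of AT1G12120 and 0 times in the others. These stretches thus held from 0 to 6 GATA words.

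The TTS peaks made up 19.5% of the peaks of GNC replicate 1 (95% Wilson interval 18.5 to 20.5) and 19.8% of those of GNC replicate 2 (18.7 to 20.8). They made up 18.6% (17.1 to 20.2) of the peaks of CGA1 replicate 1 and 18.8% (17.3 to 20.5) of those of CGA1 replicate 2. Positions that fulfil the rule cover 17.0% of the chromosomes, so the share stood at 1.15 and 1.16 times that of positions in the GNC lists and at 1.09 and 1.11 times in the CGA1 lists. All 4 intervals lay above 17.0%. The 17.0% counts every base of the chromosomes, also those where reads cannot be placed at a single location, and was not corrected for this. Among peaks with scores of 100 or more, the mean share of the CGA1 lists was 16.6%, below that of positions, and that of the GNC lists 18.0%. The share was 0.93 percentage points higher in GNC than in CGA1 in replicate 1 (interval −0.95 to 2.75) and 0.91 points higher in replicate 2 (−0.99 to 2.75), so a difference between the factors was not detectable at these numbers of peaks.

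**Figure D1:**
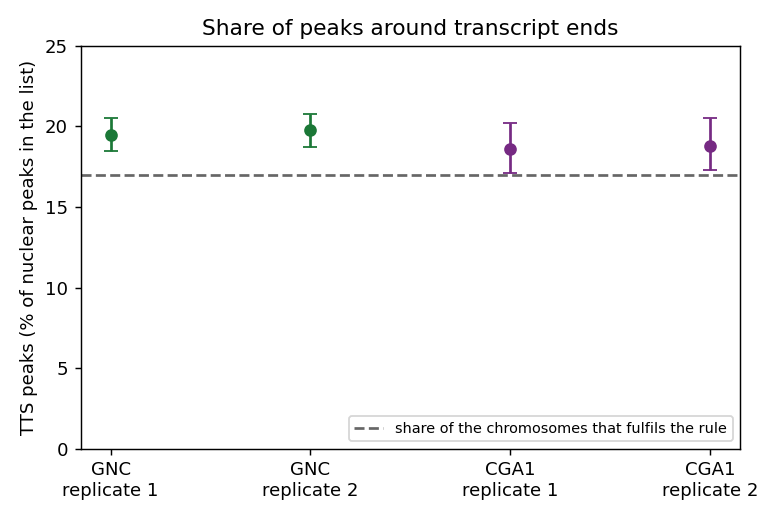
TTS peaks as a percent of the nuclear peaks of each list (points) with 95% Wilson intervals (bars), for GNC (green) and CGA1 (purple). The dashed line is the 17.0% of the chromosomes that fulfils the rule, and all 4 lists lie above it, between 18.6% and 19.8%.

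The TTS peaks were spread over all 5 chromosomes. Their share of the peaks of a chromosome ran between 18.4% (GNC replicate 1, chromosome 3) and 21.2% (GNC replicate 2, chromosome 2) for GNC, and between 17.0% (replicate 1, chromosome 4) and 21.0% (replicate 1, chromosome 1) for CGA1. On each chromosome and in each list the share was above that of positions, which was 16.2% to 17.5%. In CGA1 the interval lay above it on chromosome 1 of replicate 1 only. In GNC the interval included it on chromosome 3 of both replicates (16.3 to 20.7 and 16.7 to 21.2, against 17.0%). It also did so on chromosome 5 of replicate 1 (17.2 to 21.5, against 17.3%) and chromosome 4 of replicate 2 (16.5 to 21.7, against 16.6%). On chromosome 5 of GNC replicate 2 the lower end, 17.3, equalled the rounded share of positions.

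The scores of TTS peaks were close to those of other peaks. Their median was 65.5 and 66.3 in the GNC lists, against 65.2 and 65.5 for all other peaks of these lists. In the CGA1 lists it was 63.2 and 63.1, against 62.8 and 62.5 for all other peaks. Scores of 100 or more were found for 112 (10.0%) and 118 (10.4%) TTS peaks of GNC, against 11.1% and 11.6% of other GNC peaks. In CGA1 they were found for 32 (7.02%) and 34 (7.52%) TTS peaks, against 8.25% and 8.53% of other CGA1 peaks. The highest scores of all lay elsewhere: the maximum among TTS peaks was 231.79 and 204.11 for GNC, against 556.44 and 646.47 among other peaks, and 183.14 and 236.2 for CGA1, against 457.19 and 610.72 among other peaks. TTS peaks had a median width of 379 and 383 bp in the GNC lists and 415 and 406 bp in the CGA1 lists.

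Most TTS peaks were found in both lists of a line. The share that overlapped any peak of the other replicate was 81.3% and 80.6% for GNC, against 82.7% and 83.3% of other GNC peaks. For CGA1 it was 79.6% and 80.1%, against 77.8% and 80.0% of other CGA1 peaks. Peaks without a counterpart had lower scores. In GNC replicate 1 their median score was 54.7, against 70.4 for those with a counterpart, and in CGA1 replicate 1 it was 55.6, against 65.8.

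The position of the centres relative to the transcript end was examined next. Per Mb of positions that fulfil the rule, GNC peaks were densest in the last 100 bp of the transcript, with 72.7 and 71.5 per Mb in the 2 lists. The density was 64.8 and 60.6 per Mb in the first 100 bp behind the end and had its minimum, 44.5 and 47.2 per Mb, between 300 and 400 bp. Beyond this it stayed between 49.5 and 60.2 per Mb up to 1 kb. CGA1 peaks had 27.5 per Mb in the last 100 bp of the transcript in both lists and their lowest density in replicate 1, 17.1 per Mb, between 700 and 800 bp, where replicate 2 had 18.1 per Mb. In replicate 2 the highest density was 28.5 per Mb, between 100 and 200 bp, and the lowest 17.5 per Mb, in the last 100 bp of the window. The bins of the CGA1 lists hold only 33 to 49 peaks each.

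**Figure D2:**
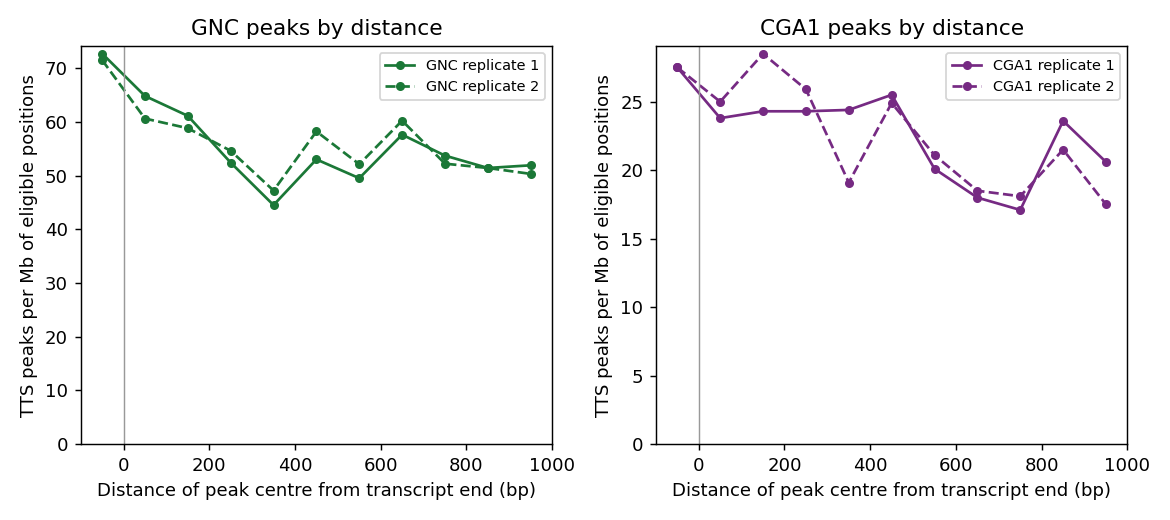
TTS peaks per Mb of positions that fulfil the rule (y axis) in bins of 100 bp by the distance of the peak centre from the transcript end (x axis, negative within the transcript), for GNC (left) and CGA1 (right) in replicates 1 (solid) and 2 (dashed). GNC is densest just before the end, at 72.7 and 71.5 per Mb, while the CGA1 curves lie between 17.1 and 28.5 per Mb.

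Centres in the last 100 bp of the transcript made up 10.6% and 10.4% of the GNC TTS peaks and 9.87% and 9.96% of those of CGA1, against 8.09% of positions. In the first 500 bp behind the end lay 44.2% and 44.5% of GNC centres and 48.2% and 48.9% of CGA1 centres, against 44.5% of positions. The difference of GNC minus CGA1 was −4.05 points in replicate 1 (interval −9.46 to 1.36) and −4.38 points in replicate 2 (−9.80 to 1.05), and both intervals include 0. The peak interval itself spanned the transcript end in 28.8% and 27.3% of GNC cases and 29.2% and 31.9% of CGA1 cases. The outer edge of the window was compared with the bases beyond it. In GNC replicate 1 the 98 centres between 900 and 1000 bp had a median score of 62.5 and the 102 in the next 100 bp, just outside, one of 67.6, and in CGA1 replicate 1 the 38 centres inside had 65.1 and the 42 outside 60.7.

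Much of the window behind a transcript end belongs to a neighbour. Of the centres, 33.7% and 34.2% in GNC and 34.9% and 34.5% in CGA1 lay between genes, against 33.9% of positions. Coding exons held 28.2% and 28.1% of the GNC centres and 27.0% and 26.1% of the CGA1 centres, against 31.3% of positions. The intervals of all 4 lists for coding exons, 25.7 to 30.9 and 25.6 to 30.8 in GNC and 23.1 to 31.2 and 22.3 to 30.3 in CGA1, lay below the share of positions. In 3′ UTRs lay 16.7% and 16.6% of the GNC centres and 13.8% and 14.8% of the CGA1 centres, against 13.8% of positions. The GNC intervals for 3′ UTRs, 14.6 to 19.0 and 14.6 to 18.9, lay above the share of positions and those of CGA1 included it. The difference between the factors itself was 2.88 points in replicate 1 (interval −1.16 to 6.55) and 1.81 points in replicate 2 (−2.31 to 5.57) and was not detectable. Introns held 12.4% and 12.4% of the GNC centres and 15.1% and 15.0% of the CGA1 centres, against 13.0% of positions, and 5′ UTRs 5.89% and 5.49% of GNC centres and 5.04% and 6.19% of CGA1 centres, against 4.27% of positions. The 5′ UTR intervals lay above the share of positions in both GNC lists (4.66 to 7.43 and 4.30 to 6.97) and in CGA1 replicate 2 (4.32 to 8.81), and that of CGA1 replicate 1 included it (3.38 to 7.45).

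The next protein-coding gene was taken as the first that lies wholly beyond the transcript end. A gene that overlaps the end was passed over, so the next gene is not always the nearest neighbour. It was convergent, with its own transcript end towards the first, for 42.9% and 43.5% of GNC centres. For CGA1 this held for 45.6% and 46.0% of centres, against 44.9% of positions. The gap to this gene had a median of 1808 and 1851 bp at GNC peaks and 1739 and 1808 bp at CGA1 peaks, against 1857 bp over positions and 1058 bp over all protein-coding genes. Centres that lay in the windows of several transcript ends numbered 133 and 144 for GNC and 53 and 47 for CGA1, and were assigned to the nearest end. The promoter window of a non-coding gene held 9.11% and 9.38% of the GNC centres and 11.0% and 10.2% of the CGA1 centres, against 10.1% of positions. Of these non-coding genes, small nucleolar RNA genes, which guide the modification of ribosomal RNA, accounted for 6 and 7 GNC peaks and for 0 and 0 CGA1 peaks. The intervals for this share were 0.246% to 1.16% and 0.300% to 1.27% in GNC and reached up to 0.835% and 0.843% in CGA1, against 0.277% of positions. That of GNC replicate 2 lay above the share of positions, the others included it, and the intervals of GNC and CGA1 overlapped. Antisense RNA genes accounted for 3 and 2 GNC peaks and for 4 and 3 CGA1 peaks. In CGA1 replicate 1 their share was 0.877% (interval 0.342 to 2.23), above the 0.296% of positions, which the intervals of the other lists included.

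TTS peaks were assigned to 1108 and 1117 genes in the GNC lists and to 454 and 450 genes in the CGA1 lists. In both lists of a line a TTS peak was found at 903 genes for GNC, or 3.37% of the 26772 protein-coding genes that have a position fulfilling the rule. For CGA1 it was found at 360 genes, or 1.34% of them. The product was not described for 86 genes of GNC and 32 genes of CGA1. The median gene length was 2068 bp for the GNC genes and 2130 bp for the CGA1 genes, against 2078 bp for all protein-coding genes.

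The highest GNC TTS peak lay behind LACS2, a long-chain acyl-CoA synthetase needed for the cutin of the leaf surface, on chr1:18296313-18296869 in the gap to LCR16. Its score was 231.79 in replicate 1 and 204.11 in replicate 2, and its centre lay 685 bp behind the transcript end. The peak at AT3G52710, with scores of 202.57 and 176.66, was centred 14 bp behind the end in an annotated intron. The first gene wholly beyond this end, that of the carbonic anhydrase ACA1, is convergent. AT3G28190 had a score of 188.47 in both lists, 593 bp behind its end. AT5G05240, annotated as a cation-transporting ATPase, followed with 164.83 and 180.31 at 171 bp, in an annotated 3′ UTR.

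Of the other high GNC peaks, that at IMPA-7, an importin alpha of nuclear import, had scores of 158.37 and 154.53 and was centred 603 bp behind the end in a coding exon. The protein kinase gene AT5G47070 had 149.39 and 152.42 at 990 bp, also in a coding exon. The methyltransferase gene AT1G33170 had 145.68 and 145.27, with the centre in its 3′ UTR at −59 bp, before the end. AT3G47490 had 168.91 and 119.05 at 306 bp, in the gap to CDF3, a cycling DOF factor that faces it. AT1G52680 and AT1G14650 complete the 10, with scores from 126.5 to 163.48. The order is by mean score.

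In CGA1 the highest TTS peak lay at 5PTase14, an inositol polyphosphate phosphatase, on chr2:13532011-13532781, with scores of 183.14 and 169.86. Its centre lay 88 and 90 bp behind the end, in an annotated coding exon. AT1G04670 had 175.56 and 171.44, 98 and 96 bp behind its end. GDCH, the H protein of the glycine decarboxylase of photorespiration, had 110.57 in replicate 1 and 236.2 in replicate 2, so its place in the order rests on the second list. GH9B16, a glycosyl hydrolase of the family that holds cellulases, had 163.13 and 170.4 at 856 bp, in an intron.

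AT2G47890, which encodes a B-box zinc finger protein with a CCT domain, had CGA1 scores of 134.71 and 124.83 at 753 bp, in the 3′ UTR of the convergent TLP3. The pentatricopeptide repeat gene AT5G46680 had 118.36 and 138.03 at 43 bp, and the gene behind it in tandem is bHLH071. GATA17, another member of the GATA family, had a CGA1 peak on chr3:5763053-5763643 with scores of 121.7 and 132.79, centred 150 bp behind its end between genes. AFH1, a formin that nucleates actin, had 127.37 and 124.21. AT4G05060 and AT1G70100 had scores from 129.92 to 135.66, with centres in a 5′ UTR and a coding exon.

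**Figure D3:**
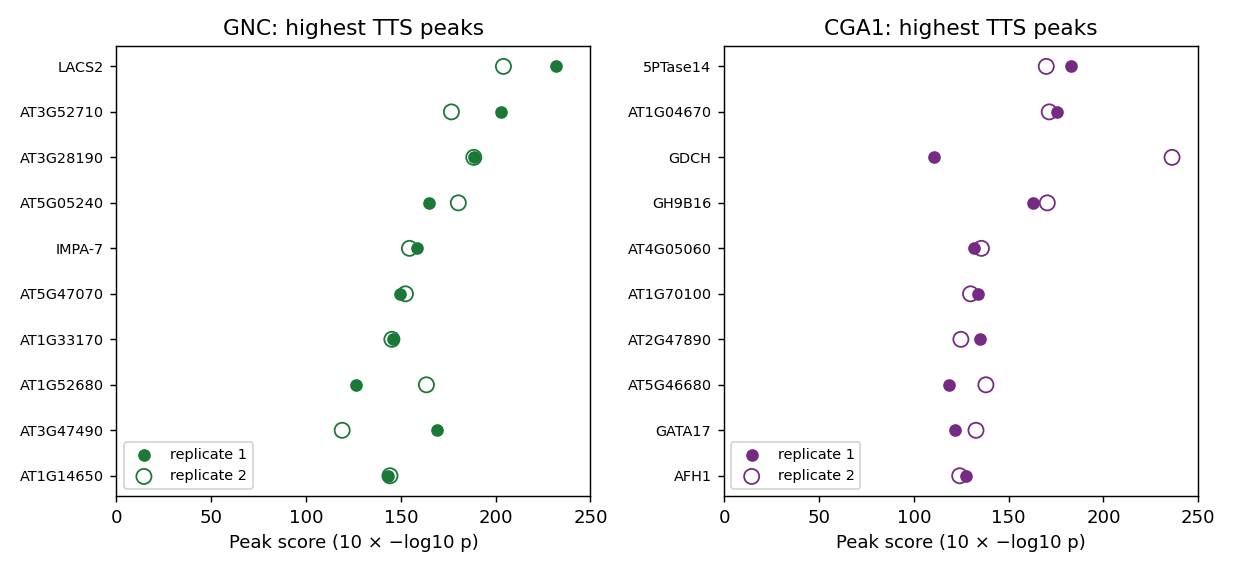
MACS scores (x axis, −log10 p times 10) of the 10 TTS peaks with the highest mean score in GNC (left) and CGA1 (right), with replicate 1 filled and replicate 2 open. Most pairs lie close together, while GDCH has 110.57 and 236.2.

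Genes with a TTS peak of both factors, found in all 4 lists, numbered 19. That was 2.10% of the genes of GNC (interval 1.35 to 3.26), against the 1.34% of all genes that had a CGA1 TTS peak, and 5.28% of those of CGA1 (3.40 to 8.10), against the 3.37% of all genes that had a GNC TTS peak. Genes with a TTS peak also had more positions that fulfil the rule. Their median was 1000 bp for GNC and 980 bp for CGA1, against 840 bp over all genes that have such positions. Whether this accounts for the shares of genes with peaks of both factors was not tested. At 17 of the 19 genes the peaks of the factors overlapped in both lists. Counted as regions, 21 GNC peaks (2.31% of 911) overlapped 20 CGA1 peaks (5.52% of 362). The overlap had a median of 217 bp (13 to 426 bp), and the centres lay a median of 211 bp apart (8 to 516 bp). Among all CGA1 TTS peaks 6.80% and 6.64% overlapped any GNC peak, against 5.65% and 5.80% of other CGA1 peaks, and the intervals of these shares overlap.

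GDCH had GNC peaks with scores of 58.78 and 61.13 within its CGA1 peak, whose scores were 110.57 and 236.2. The centres lay 443 bp behind the end for GNC and 405 and 403 bp for CGA1, in a coding exon of the next gene in tandem, the peroxidase gene AT2G35380. GDCH was thus a gene at which CGA1 had the higher scores in both lists.

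Behind AT1G12120, a gene of unknown function, the GNC peak on chr1:4113924-4114349 had a score of 117.26 in both lists and the CGA1 peak on chr1:4114243-4114657 one of 67.05 in both lists. A second GNC peak, with 73.71 and 61.13, overlapped the CGA1 peak on its other side, 16 bp behind the end. The gene that faces AT1G12120 across a gap of 5073 bp is NRT1.1, a nitrate transporter and sensor. The stretch printed above from the CGA1 peak is the one with 6 GATA words.

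ORG1 had GNC scores of 117.69 and 108.35 at 271 bp and CGA1 scores of 58.32 and 60.88 at 537 bp. The next gene in tandem, 7707 bp away, is GLT1, the NADH-dependent glutamate synthase of ammonium assimilation. At AT1G12120 and ORG1 GNC had the higher scores in both lists.

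At AT5G13295 GNC had 104.14 and 87.9 and CGA1 68.32 and 84.99. At LCR67, a small cysteine-rich protein, GNC had 102.05 and 80.89 and CGA1 80.72 in both lists. Its centres, 147 bp behind the end for GNC and 155 bp for CGA1, were only 8 bp apart, the closest of the 21 regions, and no GATA or GATC occurs in the stretch printed.

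At SWEET7, of the SWEET family of sugar transporters, GNC had 63.57 and 59.3 and CGA1 96.64 and 103.68, with centres 180 and 233 bp behind the end. XTH7, a xyloglucan-modifying enzyme of the cell wall, had GNC scores of 58.89 and 55.61 and, at the higher of 2 CGA1 peaks, CGA1 scores of 90.17 and 91.5. The other CGA1 peak, with 79.54 and 70.73, overlapped the GNC peak more, by 345 bp. LHW, a bHLH regulator of vascular development, had GNC scores of 63.66 and 58.16 and CGA1 scores of 90.17 and 84.01. AT5G47530, annotated as auxin-responsive, had GNC scores of 66.25 and 70.37 and CGA1 scores of 99.93 and 100.59. At these 4 genes CGA1 scored higher in both lists.

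AT1G61670, AT2G42450, AT5G27870, MSRB7 and ARO1 had GNC scores from 57.02 to 85.72 and CGA1 scores from 57.27 to 72.91. MSRB7 is a methionine sulfoxide reductase that repairs oxidised proteins. At ARO1 and SGR9 the peaks of the factors did not overlap. ARO1 had centres 35 bp behind the end for GNC and 561 and 563 bp for CGA1. A further 4 genes, named here by their membership and not by their rank, were PBP1, SGR9, AT1G76940 and AT3G15720, with scores from 51.51 to 67.9 in the 4 lists, and 1 more of the 19 genes is not described here. Scores of different lists depend on the depth of their libraries, so a higher score in one line does not measure stronger binding.

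**Figure D4:**
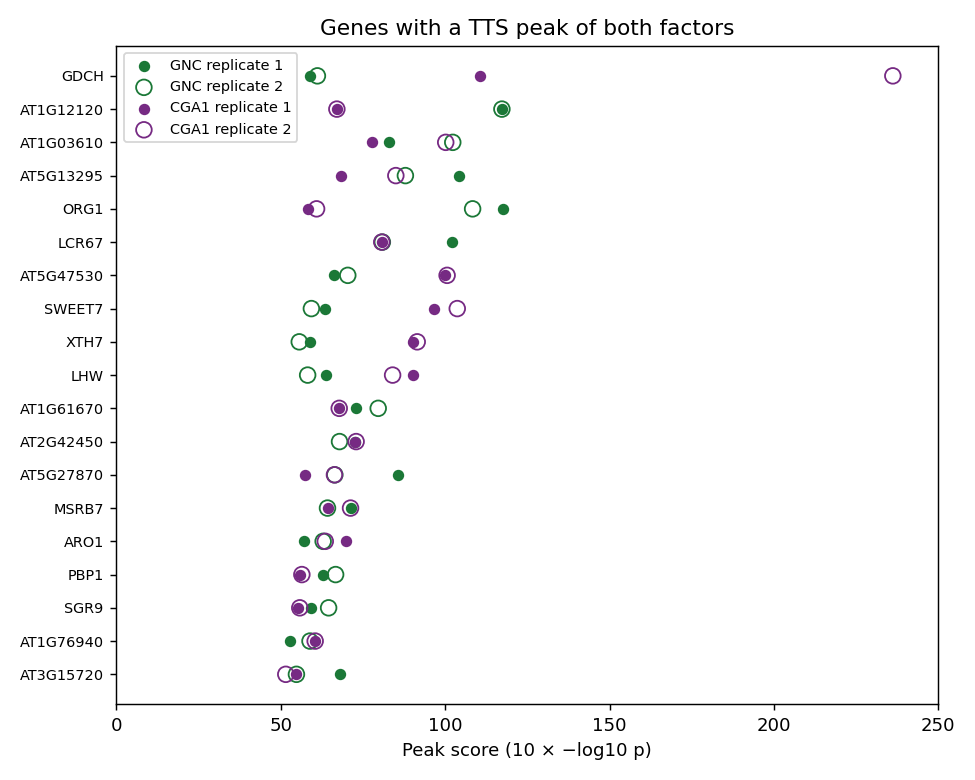
MACS scores (x axis, −log10 p times 10) at the 19 genes with a TTS peak of both factors, for GNC (green) and CGA1 (purple) in replicate 1 (filled) and replicate 2 (open). GDCH has the highest value, 236.2 in CGA1 replicate 2, and most others lie between 50 and 120.

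In 3 of the 21 overlap regions the peaks were assigned to different genes, which in each case were convergent. One was the region at the facing ends of CKX6, a cytokinin oxidase that degrades cytokinin, and AT3G63450. The gap between these genes is 20 bp, and the centres of both factors lay within AT3G63450. The GNC peak there had scores of 115.61 and 127.16 and was centred 188 bp behind the end of CKX6, and the CGA1 peak had 80.21 and 74.35 and was centred at −89 bp from the end of AT3G63450, with the centres 79 bp apart. The other regions lay at the facing ends of AT4G19650 and AT4G19660 (GNC 56.05 and 60.21, CGA1 71.7 and 71.68) and of CIPK5 and AT5G10920 (GNC 84.41 and 99.64, CGA1 68.44 and 75.36).

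Genes that had a TTS peak were looked up for a promoter peak as well. Of the 903 GNC genes 54 (5.98%) also had a GNC promoter peak in both lists, against 5.38% of all the genes that could have a TTS peak. A CGA1 promoter peak was found at 14 of them (1.55%), against 2.24% of all. Of the 360 CGA1 genes 24 (6.67%) had a GNC promoter peak, against 5.38%, and 11 (3.06%) a CGA1 promoter peak, against 2.24%. All shares were close to those over all genes. WOX1, a homeobox gene of leaf blade growth, was among them, with GNC scores of 125.45 and 109.01 at 265 bp behind the end and 61.89 and 54.32 at −59 bp from the TSS. XTH7 had CGA1 peaks at both ends, with 57.51 and 57.96 in the promoter at −327 bp.

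The gene groups were counted over the products and symbols of the annotation, beside the 3.37% and 1.34% of all genes. Of 1666 transcription factor genes 59 (3.54%) had a GNC TTS peak and 27 (1.62%) a CGA1 TTS peak. The highest GNC peak of this group lay at AGL6, a MADS-box gene of flower development, on chr2:18806328-18806736. It had scores of 145.81 and 139.14 and was centred in the 3′ UTR at −55 bp, before the end. The same centre lay 974 bp behind the end of the convergent SOC1, an integrator of flowering signals named AGL20 in the annotation, across a gap of 919 bp. bZIP58 had GNC scores of 125.32 and 119.41 and the bHLH gene AT4G01460 123.48 and 144.57. In CGA1, AT2G47890 and GATA17 were followed by WRKY47, with 100.67 and 102.11 at 890 bp.

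Among 1220 E3 ubiquitin ligase genes 44 (3.61%) had a GNC and 16 (1.31%) a CGA1 TTS peak. They included BOP1, a BTB protein that patterns leaves, with GNC scores of 106.9 and 105.86 at 647 bp. This centre lay in a coding exon, and the convergent SDP1-LIKE lies only 4 bp beyond the end of BOP1. Others were AT3G02890, annotated as RING/FYVE/PHD zinc finger (GNC 146.28 and 139.82), and AT2G35420, annotated as RING/U-box (CGA1 88.66 and 94.26). Their centres lay in an intron and a coding exon. Of 1015 genes found as protein kinases or phosphatases 39 (3.84%) had a GNC and 16 (1.58%) a CGA1 peak. CRLK2 had GNC scores of 133.57 and 102.42 at 89 bp and the receptor-like kinase CRK20 117.19 in both lists at −85 bp, before its end. Haspin, a histone kinase of mitosis, had CGA1 scores of 110.55 and 98.01, the protein kinase STY46 98.21 and 109.96, and MAPKKK9, a kinase of a MAP kinase cascade, 89.47 and 102.59. The centres lay in coding exons for Haspin and MAPKKK9 and in a 5′ UTR for STY46.

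Of 225 chloroplast or photosynthesis genes 11 (4.89%, interval 2.75 to 8.54) had a GNC TTS peak and 4 (1.78%, interval 0.693 to 4.48) a CGA1 TTS peak, and both intervals include the share of all genes. PRPS20, a protein of the small plastid ribosomal subunit, had GNC scores of 147.19 and 137.06, with the centre 659 bp behind its end in a coding exon. LHCB3, an antenna protein of photosystem II, had 83.55 and 97.35 at 274 bp, also in a coding exon. In CGA1 PSAK, a subunit of photosystem I, had 57.62 in both lists at 80 bp, and NAKR3 72.96 and 60.74 at 23 bp, in a coding exon.

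Of 316 hormone response genes 10 (3.16%) had a GNC and 4 (1.27%) a CGA1 TTS peak. CKX6 led those of GNC, and GASA6, a gibberellin-regulated gene, had 95.91 and 86.45 at 47 bp. RR5, a type-A response regulator of cytokinin signalling, had GNC scores of 89.56 and 84.58 at 669 bp, in the 5′ UTR of a neighbour, and EDS1 lies next to it in tandem. In CGA1 AT5G47530 was followed by AFB3, an auxin receptor F-box protein, with 74.05 and 68.88 at 85 bp, and by the gibberellin oxidase gene GA20OX5, with 60.67 and 61.66 at −82 bp, before its end.

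Light, clock and flowering genes numbered 135, of which 4 (2.96%) had a GNC peak and 2 (1.48%) a CGA1 peak. Besides AGL6 they included CCR1, an RNA-binding protein under clock control, with GNC scores of 114.85 and 114.16, and AGL15, with 79.38 and 75.81. The CGA1 genes were AGL104 (78.09 and 113.03) and PKS2, a phytochrome kinase substrate, with 56.38 and 57.14. Of 28 genes of mRNA 3′ end formation, 1 had a GNC peak (PAB7, a poly(A) binding protein, 71.27 and 53.55) and 0 a CGA1 peak, which allows a share of up to 12.1% by the Wilson interval.

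Disease resistance genes numbered 413, of which 15 (3.63%) had a GNC TTS peak and 3 (0.726%, interval 0.247 to 2.11) a CGA1 TTS peak. The plant defensin PDF1.3 had GNC scores of 88.28 and 82.63 at 48 bp and the thionin gene AT1G77682 CGA1 scores of 122.55 and 128.46. Of 378 ribosomal protein genes 13 (3.44%) had a GNC and 7 (1.85%) a CGA1 peak, with EMB3137 (GNC 114.81 and 117.02) and RPS1 (CGA1 78.93 and 86.05) among them. In each of the 9 groups and both lines the interval included the share of all genes.

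**Figure D5:**
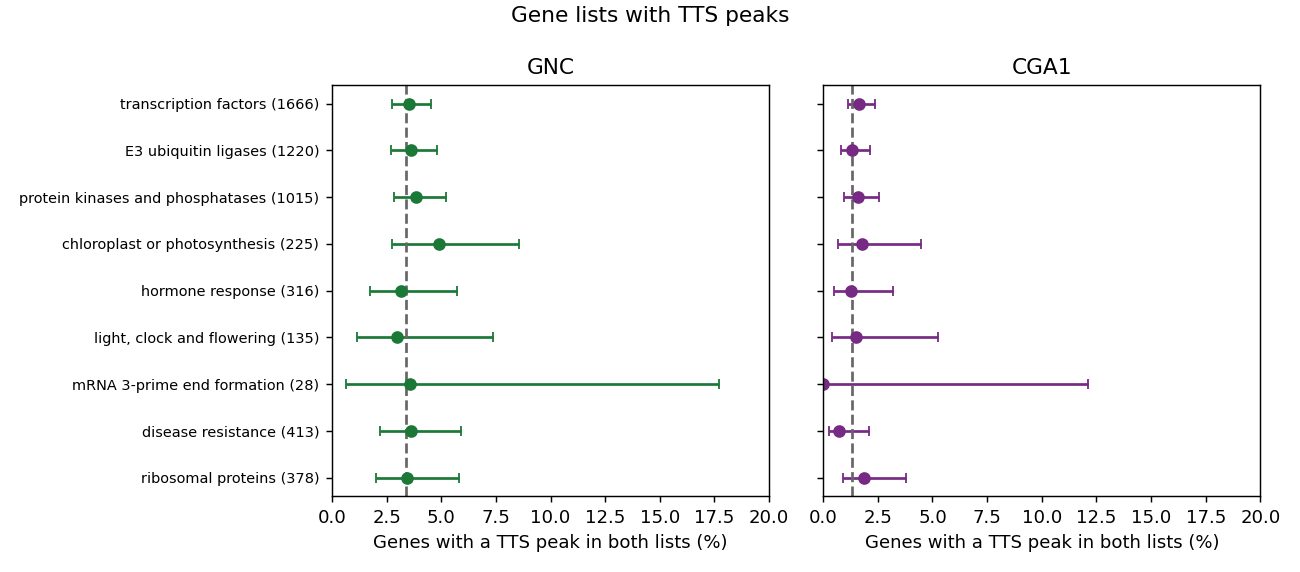
Percent of the genes of 9 groups with a TTS peak in both lists of GNC (left) or CGA1 (right), with 95% Wilson intervals and the number of genes in parentheses. The dashed lines are the shares of all genes, 3.37% and 1.34%, and every interval crosses its line.

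The small families held few members with a TTS peak. Of 24 TCP genes, which control leaf growth, 2 (8.33%, interval 2.32 to 25.8) had a GNC peak and 0 a CGA1 peak. TCP13, named PTF1 in the annotation, had GNC scores of 96.38 and 84.71 at 109 bp and a GNC promoter peak with 75.02 in both lists at −629 bp from the TSS. TCP17 had 89.3 and 80.5 at 499 bp. Of 78 SAUR genes 2 had a GNC peak, with scores from 50.42 to 73.88, and 0 a CGA1 peak. SAUR15 had a GNC peak in replicate 1 only, with a score of 55.47, 18 bp behind its end.

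Of 22 ARF genes 1 had a GNC peak. This was MP, the auxin response factor of embryo and vein patterning, with 68.0 and 98.52 at 851 bp, in a coding exon. MP is also the 1 of 30 genes found as Aux/IAA because the annotation gives it an IAA number. Of 38 LBD genes 1 had a CGA1 peak (ASL15, 65.87 in both lists), of 24 ARR genes 1 a GNC peak (RR5), and of 11 CRF genes 0 had a peak of either factor. Of 29 GATA genes GATA20 had a GNC peak, with 107.67 and 104.69 at 959 bp in a 3′ UTR, and GATA17 the CGA1 peak given above. GNC, CGA1, SPCH, CRF2, SAUR14, PTAC7, LHCB1.4 and LHCB5 had no TTS peak assigned in any list.

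Words in the DNA were counted on both strands in windows of 250 bp on each side of the centre (501 bp), beside all windows of this length centred every 100 bp on positions that fulfil the rule. GATC occurred in 82.9% and 83.1% of the GNC TTS windows and 80.5% and 80.3% of those of CGA1, against 80.5% of positions. The intervals of GNC, 80.6 to 85.0 and 80.8 to 85.2, lay just above the share of positions. Those of CGA1, 76.6 to 83.9 and 76.4 to 83.7, included it. Among other peaks it occurred in 79.2% and 79.3% of the GNC windows and 79.0% and 80.1% of the CGA1 windows. The extended GATA words AGATAA or AGATAG, and TGATAA or TGATAG, all of which contain GATA, occurred together in 75.2% and 75.3% of the GNC TTS windows and 76.5% and 77.4% of those of CGA1, against 76.9% of positions. Other peaks held any of them in 78.0% and 77.7% of GNC windows and 78.5% and 79.0% of CGA1 windows. The extended GATA words were thus about as frequent at TTS peaks as at positions without regard to a peak.

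The G-box CACGTG, the core bound by many bZIP and bHLH factors and a case of CANNTG, occurred in 6.43% and 6.73% of the GNC TTS windows and 6.14% and 5.97% of those of CGA1, against 4.81% of positions. The intervals of GNC, 5.14 to 8.02 and 5.41 to 8.34, lay above the share of positions, and those of CGA1, 4.28 to 8.73 and 4.14 to 8.55, included it. In other peaks the G-box was as frequent, with 6.81% and 6.75% for GNC and 6.40% and 6.63% for CGA1. AATAAA, the polyadenylation-type word, occurred in 59.6% and 58.4% of the GNC TTS windows and 60.1% and 59.3% of those of CGA1, against 59.0% of positions.

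Over 19 differences between the factors that were computed for each list, the interval lay on one side of 0 for 1, the share of windows of 100 bp on each side that held GATC. This share stood at 52.6% and 52.5% in GNC and 45.4% and 46.7% in CGA1, against 49.9% of positions. At TTS peaks GNC was 7.19 points higher in replicate 1 (interval 1.75 to 12.56) and 5.80 points higher in replicate 2 (0.34 to 11.19). The intervals were not widened for the number of differences and, with 1 sample per line, do not cover variation between samples. In windows of 250 bp the difference was 2.46 points (−1.63 to 6.88) and 2.79 points (−1.32 to 7.22).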

How the data were processed

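ChIP-seq peaks were taken from the 4 deposited lists, 2 per line. After trimming, reads were aligned by the authors to TAIR10 using Bowtie2 (version 2.2.6 per the submitters' processing notes), those with several locations were removed, and peaks were called per replicate with MACS 1.4 against INPUT. The deposited score is −log10 p times 10. It was used to rank and filter peaks, and for the medians and the scores given side by side. The sample titles gave the line.

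Peak centres were compared with the TAIR10.1 genes of RefSeq, whose chromosome lengths exceed all peak ends, and were assigned to the nearest transcript end. Reachable genes and background shares came from positions every 20 bp that fulfil the rule. Peaks overlapped when they shared at least 1 bp. Shares have Wilson and differences Newcombe 95% intervals. With 1 sample per line no test was made, and 1 chloroplast peak in each GNC list was left out. The steps ran in Python 3.11.15 and were tested on simulated data.

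The members and gene lists were chosen with earlier results of these data known. The genes named are the 10 highest TTS peaks found in both lists of a line, 14 of the 15 highest genes with peaks of both factors (1 is not reported here), up to 3 genes per gene list and line, and 11 genes looked up, with neighbours of these. WOX1, PBP1, SGR9, AT1G76940 and AT3G15720 were named after their values were seen. The lists rest on words in symbols and products, are not complete and can hold genes of other function.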

Additional observations from a re-analysis of the deposited data

How the results depend on the processing

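Of 71 alternatives to 16 results, 45 left the value near the one reported and 26 moved it. The share of TTS peaks was 19.6% for GNC and 18.7% for CGA1 as means of the lists. With scores of at least 100 it was 18.0% and 16.6% (1.06 and 0.978 times the share of positions), so for CGA1 it no longer exceeded positions. Settings that change the positions counted also moved this share, which in the main setting stood at 1.16 times positions for GNC and 1.10 times for CGA1. It was 10.8% and 10.9% with 500 bp downstream (1.20 and 1.22 times positions). With promoter peaks kept it was 27.2% and 25.8% (1.18 and 1.12 times). Without the promoters of all annotated genes it was 17.8% and 16.7% (1.17 and 1.10 times). With scores of at least 100 the genes found in both lists were 83 for GNC and 24 for CGA1, 0 genes had peaks of both factors and 0 regions overlapped. With 500 bp downstream these genes were 500, 215 and 10, and 29 had peaks of both factors with promoter peaks kept. A reciprocal overlap of at least 50% left 7 overlap regions of 21.

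With scores of at least 100, the share found in the other replicate was 72.2% for GNC and 72.8% for CGA1, where both peaks have to pass. The share with a convergent next gene was 47.9% for GNC and 30.2% for CGA1 (32 and 34 CGA1 peaks), and the share in a non-coding promoter 6.09% for GNC. In windows of 100 bp GATC occurred in 52.5% and 46.0% and the extended GATA words in 42.7% and 45.8% of the GNC and CGA1 windows.

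Leaving out a list of a line gave 19.5% to 19.8% for GNC and 18.6% to 18.8% for CGA1, 1108 to 1117 and 450 to 454 genes, 22 to 24 genes with peaks of both factors and 23 to 26 overlap regions. No paired analysis was possible because no result comes from a test. The lists hold no read depth, and a single sample per line leaves variation between plants unmeasured.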
